A study of Mus musculus with 8 samples.

Results

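Cytosolic ribosomal proteins were followed in whole mouse pancreas through the 76 gene entries whose symbol in the deposited tables is Rpl or Rps with a number and an optional a or x, or is Rplp0, Rplp1, Rplp2 or Rpsa. Pseudogene entries carry other symbols and were not members. The 76 made up 45 genes of the large and 31 of the small ribosomal subunit, out of 36432 gene IDs. All 76 are protein-coding in GENCODE M21, had an estimate in every library and passed the expression minimum, so none was lost to a filter.

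Poly(A) RNA had been sequenced from 4 pancreases labelled Ptf1a-Cre +/KI with Gata6 lox/lox alleles and from 4 control pancreases labelled Ptf1a-Cre +/KI alone, all from mice of mixed strain aged 6 to 8 weeks. Both groups thus carry a Cre gene inserted at Ptf1a, a gene of pancreatic progenitors and acinar cells, so deletion of the floxed alleles of Gata6, a zinc finger transcription factor, is directed to those cells and their descendants and not to the whole organ. The question put to these libraries is which transcripts change in the grown organ once Gata6 is targeted in that lineage. Whether animals share litters is not stated.

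The ribosome is built from a small subunit, which decodes the mRNA, and a large subunit, which joins the amino acids. Each protein is needed in about equal numbers, and the mRNAs of the family share a pyrimidine tract at the 5′ end that ties their translation to growth signals through mTOR. Acinar cells of the pancreas are among the most active protein-making cells of the body and are filled with ribosomes on the rough endoplasmic reticulum.

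Levels are given as rescaled FPKM, the deposited fragments per kilobase value divided by 100000, because the column sums differ widely between libraries and far exceed any usual FPKM total. Fold changes are differences of log2(rescaled FPKM + 1), Gata6 lox/lox over control, from limma fitted to 11760 genes, and a gene is said to have risen or fallen at a Benjamini-Hochberg adjusted p under 0.05. Fragment numbers implied by the deposited intervals summed to 5326087 to 8958089 per library over genes with an estimate. Gata6 itself was at 4.81, 5.12, 4.90 and 4.12 in lox/lox libraries 1 to 4 and at 2.76, 2.12, 2.62 and 2.45 in controls 1 to 4, higher and not lower in the libraries labelled lox/lox (log2 fold change 0.72, limma adjusted p = 0.0436). A value over all exons does not resolve the floxed part and did not check the label, so the libraries are called here by their label only. Acinar markers, which define the tissue, were all 14 present, and their summed level was 2357 to 242859 in the lox/lox libraries, below the 377417 to 519058 of the controls, with Cela1, a pancreatic elastase, at 130.6 to 37260 against 68300 to 93114. The summed levels of the 12 macrophage and neutrophil, 10 fibroblast and 11 adipocyte markers were higher in every lox/lox library than in every control (251.9 to 982.8 against 128.5 to 224.5, 418.5 to 1464 against 246.3 to 356.8, and 435.4 to 600.9 against 100.5 to 253.6). Islet, lymphocyte, duct and endothelial marker sums overlapped (764.6 to 5979 against 559.6 to 1479, 105.5 to 419.1 against 44.6 to 178.8, 129.6 to 242.4 against 171.9 to 227.2, and 34.6 to 44.9 against 36.9 to 51.7), and no marker was at 0 in all libraries. The part of these cell types in the ribosomal protein levels was not tested, and in whole tissue fewer cells of a type and less RNA per cell cannot be told apart.

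On the deposited scale the whole family was lower in lox/lox pancreas, unevenly by library. All 76 members had a negative log2 fold change, where 42.1% of all genes tested did, and the median was -0.71 against 0.10 over all genes. The median level of the members was 132.2, 209.7, 157.4 and 304.9 rescaled FPKM in lox/lox libraries 1 to 4, and 352.9, 284.7, 334.4 and 276.0 in controls 1 to 4. Lox/lox libraries 1, 2 and 3 lay below every control, and lox/lox library 4 lay among the controls. In lox/lox libraries 1, 2 and 3, 73, 72 and 74 of the 76 genes were below all 4 controls. In lox/lox library 4 there were 11, and 2 genes were above all controls.

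**Figure D1:**
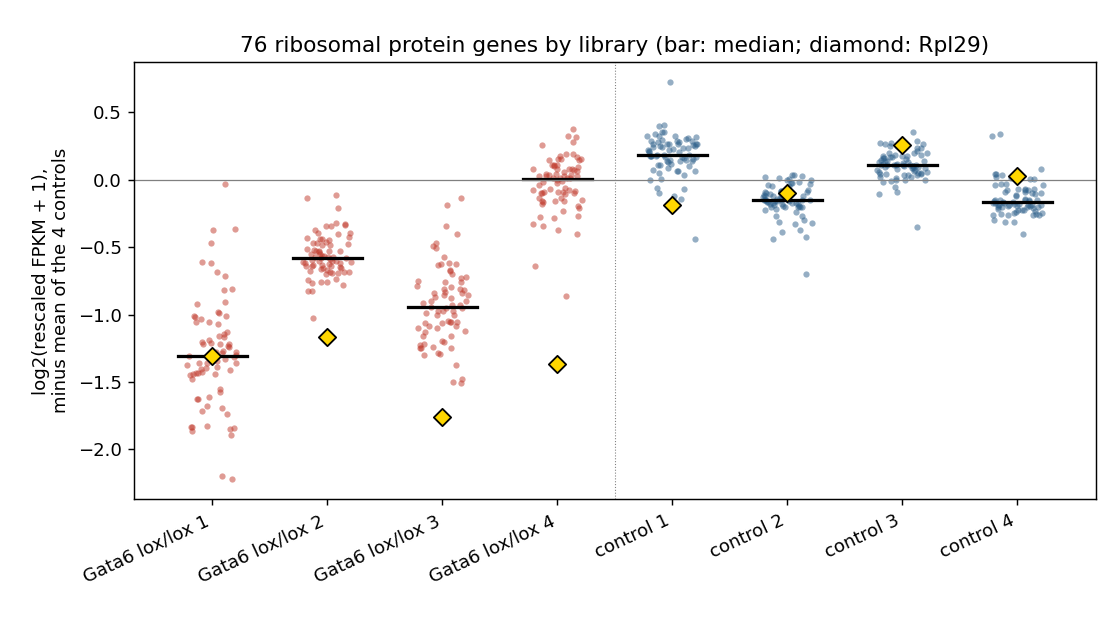
Level of each of the 76 ribosomal protein genes in each library, on the y axis as log2(rescaled FPKM + 1) minus the mean of the 4 controls, with lox/lox libraries in red and controls in blue. Bars are medians over members and diamonds are Rpl29. Medians of lox/lox libraries 1 to 3 (-1.30, -0.58 and -0.94) lie below the controls, and that of lox/lox library 4 is at 0.00.

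Only Rpl29 fell under the test over all genes, 1 of 76 members where 0.196% of all genes were lower, and no member rose (0.238% of all genes were higher). At an unadjusted p under 0.05, 28 members were lower, against 12.3% of all genes. Groups did not overlap in 11 members, all lower, which is 14.5% of the family against 7.64% of all genes. These 11 were Rpl11, Rpl15, Rpl21, Rpl23, Rpl29, Rpl30, Rpl35a, Rpl37, Rpl38, Rps3a and Rps13. Next to Rpl29 the lowest adjusted p was 0.0882, for Rpl30. Standard errors of the members ran from 0.20 to 0.46, and the lox/lox libraries differed among themselves by more than the controls in most members. The count rests on lox/lox library 4: without it 48 members fell and 0 rose (10.4% of all genes were then lower and 11.8% higher), and limma with sample weights, which gives deviating libraries less weight, called 47 lower and 0 higher (12.7% and 19.9% of all genes).

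The direction of the family as a whole depends on how libraries are scaled to each other. With an equal sum outside the digestive enzymes the median log2 fold change of the members was 0.28, and with the fragment totals implied by the intervals it was 0.69. The median of all genes moved to 0.85 and 1.15 under the same scalings, so the family stayed below it. Under implied totals 24 members rose and 0 fell, while 47.7% of all genes rose. Counted as a share of implied fragments, the 76 members took 2.97%, 1.57%, 2.12% and 1.68% in lox/lox libraries 1 to 4, and 1.52%, 1.35%, 1.32% and 1.50% in controls 1 to 4. That share was therefore higher in every lox/lox library than in every control, whereas by FPKM lox/lox libraries 1, 2 and 3 had family medians below every control and lox/lox library 4 lay among them. Of the 19 digestive enzyme entries, 2 lack an estimate in 1 library or more and are not counted there in these shares. Genes marked as having too many fragments for an estimate numbered 0, 6, 5 and 6 in lox/lox libraries 1 to 4. In controls 1 to 4 they numbered 8, 8, 6 and 7. The shares are thus not over a common set of genes, and implied fragments are not counts.

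**Figure D2:**
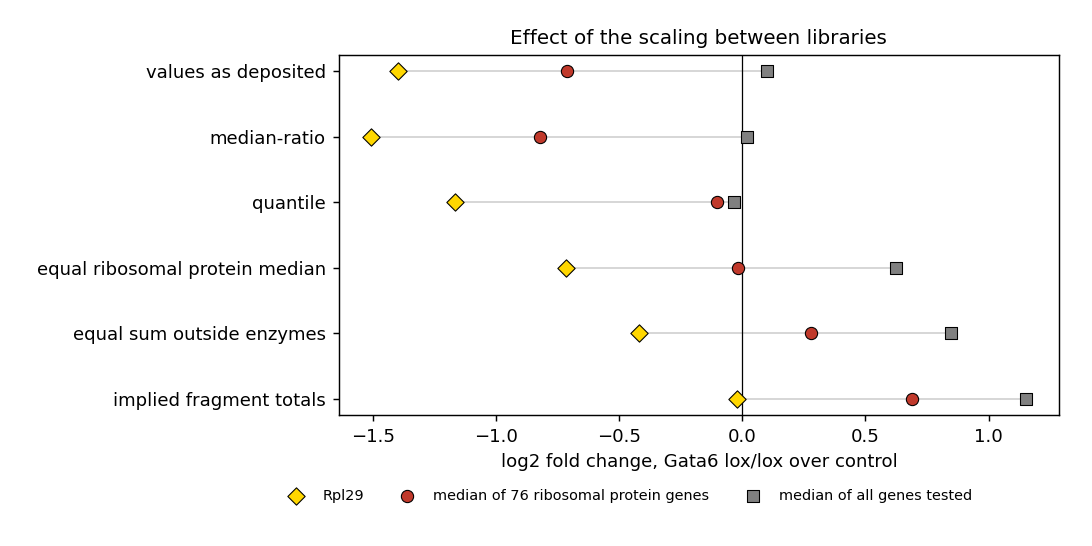
Log2 fold change, Gata6 lox/lox over control (x axis), of Rpl29 (diamonds), the median of the 76 ribosomal protein genes (circles) and the median of all genes tested (squares) under 6 scalings between libraries (rows). The family median lies between -0.82 and 0.69 and below the median of all genes in each row, and Rpl29 lies below the family median in each row.

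Both subunits showed the same order of libraries. The median log2 fold change was -0.76 over the 45 large subunit genes and -0.66 over the 31 small subunit genes. By library the large subunit median stood at -1.31, -0.60, -0.99 and -0.08 in lox/lox libraries 1 to 4 relative to the control mean, and the small subunit median at -1.28, -0.57, -0.87 and 0.04. The order of levels within the family was also kept: mean levels in lox/lox and control libraries had a Spearman rho of 0.97 across the 76 genes, a description of genes measured in the same libraries. The members lie on 19 chromosomes, 4 of them on the X chromosome.

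Among large subunit genes the highest levels belonged to Rpl13a, Rplp1 and Rpl32. Rpl13a, which also acts as a translational repressor outside the ribosome, was at 440.4, 806.4, 482.3 and 1389 rescaled FPKM in lox/lox libraries 1 to 4 and at 1516, 1235, 1396 and 1264 in controls 1 to 4. Only lox/lox library 4 reached the controls. Rplp1, an acidic protein of the stalk that recruits translation factors, was at 250.8, 715.6, 404.3 and 1028 in the lox/lox libraries and at 1364, 1020, 1231 and 1028 in the controls. Its log2 fold change was -1.14 (SE 0.46, limma adjusted p = 0.148). The other stalk genes, Rplp0 and Rplp2, had log2 fold changes of -0.80 and -0.55 with adjusted p of 0.191 and 0.274. Rpl32 was at 213.5, 563.3, 353.0 and 929.3 in the lox/lox libraries and at 1175, 906.9, 1099 and 852.0 in the controls, with a log2 fold change of -1.16 (SE 0.46, limma adjusted p = 0.144). Lox/lox library 1 held the lowest value of all 3 genes.

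At the low end of the large subunit stood Rpl29 and Rpl15. Rpl15 was at 53.7, 68.6, 43.9 and 85.9 rescaled FPKM in lox/lox libraries 1 to 4 and at 102.1, 107.2, 123.0 and 106.8 in controls 1 to 4. The groups did not overlap, with an adjusted p of 0.108 in limma. The least negative genes of this subunit were Rpl23a, Rpl35 and Rpl22. Rpl23a and Rpl35 encode proteins around the exit of the peptide tunnel, where the signal recognition particle docks. Their log2 fold changes were -0.22 (SE 0.28) and -0.34 (SE 0.24), with limma adjusted p of 0.584 and 0.343. Rpl23a was at 161.0, 191.6, 139.3 and 233.6 in the lox/lox libraries and at 152.6, 209.0, 265.8 and 219.9 in the controls, so control 1 lay below 3 lox/lox libraries.

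Among small subunit genes Rps24, Rps14 and Rps15a had the highest mean levels and Rpsa and Rps2 the lowest. Rps28, Rps13 and Rps14 had the most negative log2 fold changes, -0.93, -0.88 and -0.86 (SE 0.40, 0.32 and 0.43; limma adjusted p = 0.161, 0.127 and 0.203). Rps13, which binds early to the central domain of the small subunit, was at 86.6, 158.1, 102.0 and 212.1 in lox/lox libraries 1 to 4 and at 249.4, 223.8, 271.7 and 230.0 in controls 1 to 4, without overlap. Rpsa, also known as the laminin receptor precursor, was at 117.0 ± 48.1 in lox/lox and 192.5 ± 29.4 in control libraries (mean ± SD, n = 4 each).

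Rps27, a zinc finger protein of the small subunit, was the member nearest to no difference. It was at 429.6, 399.9, 398.5 and 488.0 rescaled FPKM in lox/lox libraries 1 to 4 and at 479.9, 337.6, 503.7 and 452.3 in controls 1 to 4. The groups overlapped throughout, and the log2 fold change was -0.04 (SE 0.26, limma adjusted p = 0.930). In lox/lox library 1, where the family median was 1.30 log2 units below the control mean (-1.30), Rps27 lay among the controls. Rps27l, the paralog of Rps27, was at 59.4, 138.8, 91.9 and 208.4 in the lox/lox libraries and at 244.7, 197.6, 246.2 and 228.6 in the controls (log2 fold change -1.02, SE 0.38, limma adjusted p = 0.133). Rps27 and Rps27l are alike in sequence, so how the counting split fragments between them is uncertain. Rps15a, a protein of the small subunit with one of its highest levels, had a log2 fold change of -0.30 (SE 0.29, limma adjusted p = 0.470).

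**Figure D3:**
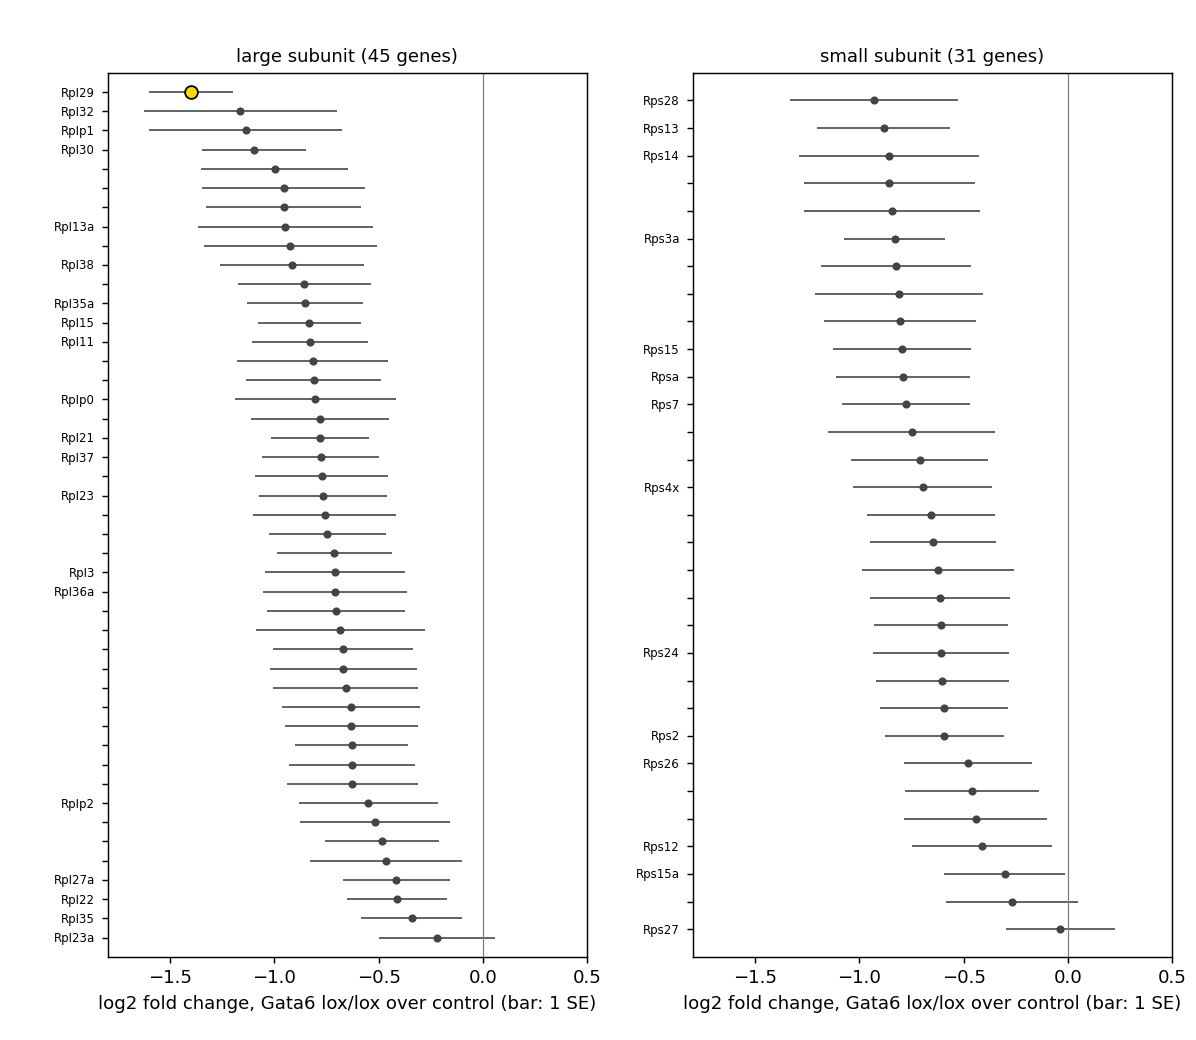
Log2 fold change, Gata6 lox/lox over control (x axis, values as deposited, bars 1 SE from limma), of the 45 large and 31 small subunit genes, sorted within each panel. Every point is below 0, from Rpl29 at -1.40 to Rps27 at -0.04, and the filled point marks the single gene with an adjusted p under 0.05. Only members named in the text are labelled.

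Rpl29 encodes a small basic protein at the surface of the large subunit, which is also found at the cell surface as a heparin-binding protein. Mice that lack it are viable but small. The gene (ENSMUSG00000048758) lies on mm9 chromosome 9, 106331785 to 106333899. It was at 27.0, 30.0, 19.5 and 26.0 rescaled FPKM in lox/lox libraries 1 to 4 and at 59.9, 63.7, 82.1 and 69.8 in controls 1 to 4. No lox/lox library reached a control, and within all 8 libraries Rpl29 was the member of lowest level. Means were 25.6 ± 4.43 in lox/lox and 68.9 ± 9.69 in control libraries (SD, n = 4 each), a ratio of 0.372. The log2 fold change was -1.40 (SE 0.20, limma adjusted p = 0.0342), and the exact two-sided permutation p was 0.0286, the smallest that 4 against 4 libraries can give. The values rest on 171.6 to 556.3 implied fragments. Rpl29 was singled out with this fall already known, so the test is no independent evidence of it.

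The fall of Rpl29 passed the threshold in 10 of 24 other settings, which include other scalings between libraries, and was negative in all 24. Under implied fragment totals the log2 fold change was only -0.020 (limma adjusted p = 0.965). With an equal sum outside the digestive enzymes it was -0.42 (limma adjusted p = 0.433). On the deposited scale the fall missed the threshold without control 1, 2, 3 or 4, at limma adjusted p of 0.0676, 0.142, 0.129 and 0.0776 in that order. It also missed without lox/lox library 1 or 3, at 0.082 and 0.0707. It held without lox/lox library 2 or 4 (0.0381 and 0.0312). Titles start with BKD for control 1 and lox/lox libraries 1, 3 and 4, with ASK for controls 2 to 4 and with BSH for lox/lox library 2, so title prefix and genotype are partly confounded. Within the BKD set Rpl29 had a log2 fold change of -1.29 (limma adjusted p = 0.628), and within the combined ASK and BSH set one of -1.23 (limma adjusted p = 0.214); in each set 1 group is a lone library that is taken to vary as the rest do. With the prefix as a covariate it was -1.26 (adjusted p = 0.181).

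How far Rpl29 departs from its family can be read within each library, where the scaling between libraries has no part. Rpl29 amounted to 20.4%, 13.9%, 12.3% and 8.42% of the median of the other members in lox/lox libraries 1 to 4, and to 16.8%, 21.9%, 24.4% and 25.3% in controls 1 to 4. The groups overlapped: lox/lox library 1 lay above control 1, while lox/lox libraries 2, 3 and 4 lay below every control. Means were 13.8% ± 4.998 in lox/lox and 22.1% ± 3.80 in control libraries (SD, n = 4 each), and the log2 ratio differed by -0.73. In lox/lox library 1, the library with the lowest family median, Rpl29 was lower by about as much as the family: its departure from the family median, relative to the control mean, was -0.11 and ranked 35 from the lowest of the 76. In lox/lox libraries 2, 3 and 4 that departure was -0.62, -0.83 and -1.37, the lowest of all 76 members in each. The departure was thus greatest in lox/lox library 4, where the rest of the family was at the control level. Among controls it was -0.38, 0.02, 0.16 and 0.20. No test was made of this departure, since the gene was picked for its fall. Its mean difference was -0.39 within the BKD set, -0.77 within the ASK and BSH set and -1.01 without lox/lox libraries 1 and 3.

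**Figure D4:**
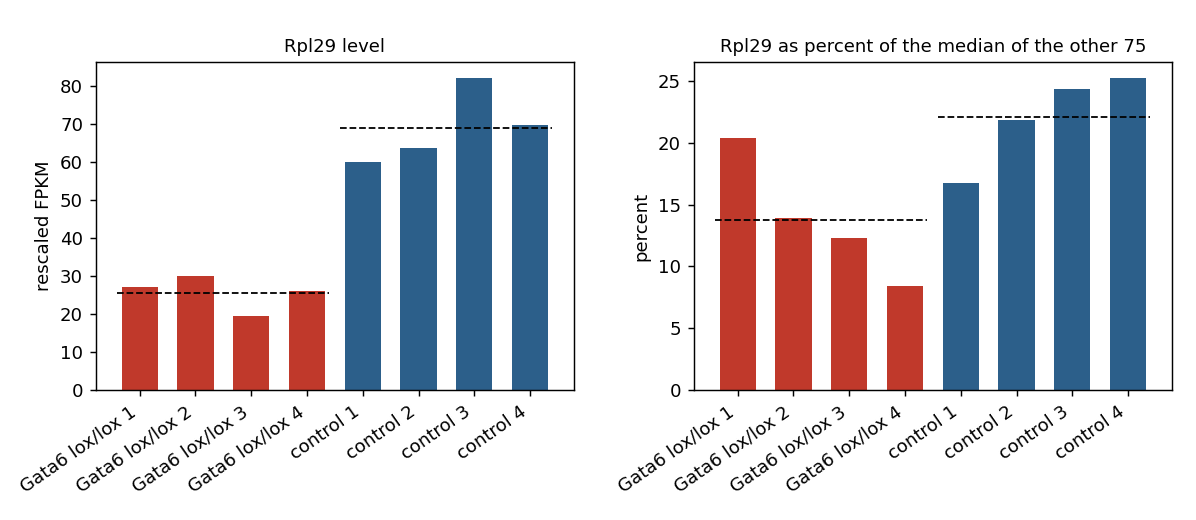
Rpl29 in each library, as rescaled FPKM (left) and as percent of the median of the other 75 members (right), with lox/lox libraries in red, controls in blue and dashed lines at the group means. The levels do not overlap between groups (19.5 to 30.0 against 59.9 to 82.1), and the percentages do (8.42% to 20.4% against 16.8% to 25.3%).

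Of 4 pseudogene entries of Rpl29, Rpl29-ps5 and Rpl29-ps2 had values below the controls in every lox/lox library. Rpl29-ps5 was at 0.324, 0.515, 0.790 and 0.792 rescaled FPKM in lox/lox libraries 1 to 4 and at 1.84, 1.25, 1.31 and 1.43 in controls 1 to 4. Rpl29-ps2 averaged 0.687 ± 0.168 in lox/lox and 1.28 ± 0.304 in control libraries (SD, n = 4 each). Rpl29-ps5 had a limma adjusted p of 0.107, and Rpl29-ps2 was under the expression minimum and not tested. No value of Rpl29-ps5 rested on more than 8.98 implied fragments and none of Rpl29-ps2 on more than 9.40. Rpl29-ps1 stood at or below 0.00211 rescaled FPKM in every library, and Rpl29-ps3 was listed at 0 in every library. Across all 156 ribosomal protein pseudogene entries, 103 were tested, all 103 had a negative log2 fold change with a median of -0.59, and 0 passed in either direction. Reads of a gene and of its copies can be exchanged by the counting, so single members with many copies are uncertain.

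Departure from the family median placed a few other members apart. Relative to the family, 5 of 76 members were lower in every lox/lox library than in every control, among them Rpl32, Rplp1, Rps7 and Rps15, and 5 were higher, among them Rps12, Rps15a, Rps26 and Rpl27a. On the same ratio to the family, 1.75% of 11125 genes above 0 in all libraries were lower and 20.3% higher. These genes were chosen after their values were seen. For Rpl32 the departures were -0.996, -0.26, -0.52 and -0.08 in lox/lox libraries 1 to 4 and 0.05, -0.02, 0.03 and -0.06 in controls 1 to 4. For Rps15a they were 0.61, 0.20, 0.58 and 0.20 in the lox/lox libraries and 0.12, -0.04, -0.11 and 0.02 in the controls. The mean difference was -0.46 for Rpl32, -0.44 for Rplp1 and 0.40 for Rps15a, and smaller for Rps7 and Rps15, at -0.08 and -0.10. Rpl30, which in yeast controls the splicing of its own transcript, had departures of -0.20, -0.26, -0.31 and -0.84 in lox/lox libraries 1 to 4 and -0.33, 0.16, -0.04 and 0.21 in controls 1 to 4. Rpl29 and Rpl30 were both lowest against the family in lox/lox library 4 and low in control 1. This was not particular to them. Rps3a had departures of -0.62 in lox/lox library 4, its lowest, and -0.31 in control 1, and Rpl11 of -0.26, its lowest, and -0.25.

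**Figure D5:**
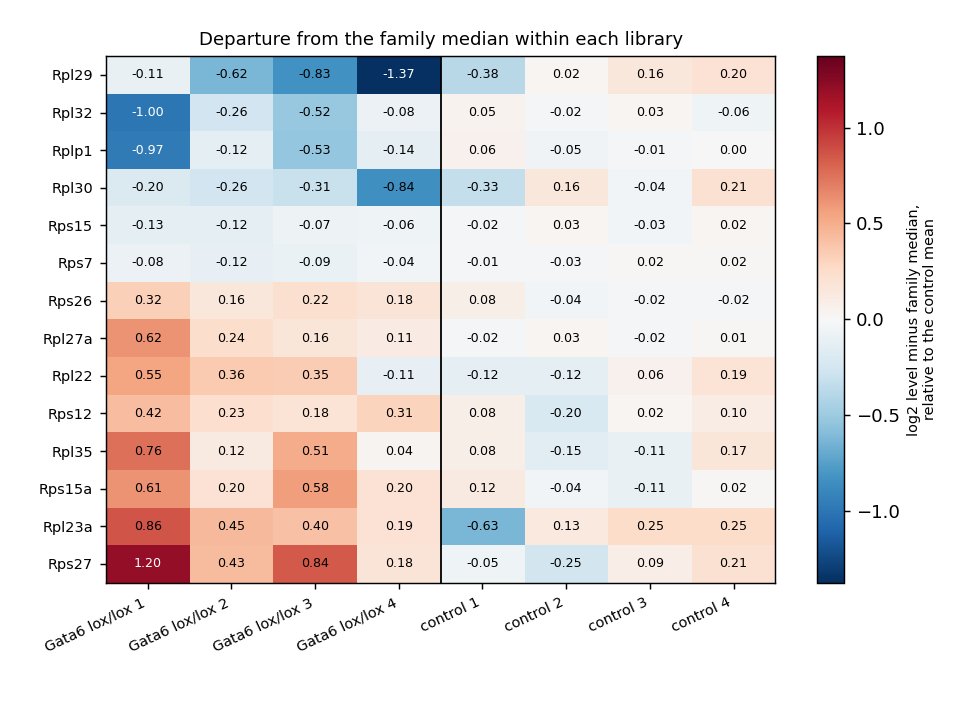
Departure of 14 members named in the text from the family median within each library, as log2 level minus the library's family median, relative to the mean of the 4 controls (colour and printed value). Rows run from the most negative to the most positive mean difference, and columns are the lox/lox libraries followed by the controls. Rpl29 departs most in lox/lox library 4 (-1.37) and little in library 1 (-0.11), where Rpl32 (-0.996) and Rps27 (1.20) mark the extremes.

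The spread among members, measured from the control mean, was wider in every lox/lox library than in every control. Each control is part of that mean and no lox/lox library is, which by itself makes the control widths smaller. The widths of the 2 groups are thus not measured alike, and how much of the difference comes from this was not tested. The middle 50% of departures was 0.40, 0.19, 0.37 and 0.23 log2 units wide in lox/lox libraries 1 to 4, against 0.16, 0.11, 0.12 and 0.13 in controls 1 to 4. The widest were lox/lox libraries 1 and 3. They were also the 2 with the lowest acinar marker sums, 2357 and 33103, beside 195260 and 242859 in lox/lox libraries 2 and 4. The part of acinar content in this spread was not tested.

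The starts of the ribosomal protein genes share sequence features that the choice of members did not use. RefSeq promoter windows of GRCm38.p6, from 250 bases before to 50 after the annotated start, matched 55 members by symbol. Rpl29, Rpl30, Rpl32, Rplp1 and Rpl23a were among those without an entry. A C at the annotated start followed by at least 4 pyrimidines, the form of the 5′ terminal tract of these mRNAs, stood in 13 of the 55 (23.6%), against 3.01% of 27025 genes in the table. Within 5 bases of the start it stood in 27 of the 55 (49.1%), against 21.2% of all genes. The letters CGGAAG, the core that transcription factors of the ETS family bind, were found on either strand in 38 of the 55 (69.1%), against 18.8% of all. The letters AAGATGGC, part of the site of YY1, were in 5 of the 55 (9.09%) against 3.19%, and TATAAA in 6 (10.9%) against 15.7%. CGGAAG and AAGATGGC can overlap by their AAG. Starts are shown for 4 members whose departure from the family median had a higher mean in lox/lox than in control libraries (Rps27, Rps15a, Rpl35 and Rpl27a). For Rps27 and Rpl35 these departures overlapped between groups. Starts are also shown for 3 members whose level was below the controls in every lox/lox library (Rpl15, Rpl38 and Rps13). Each line gives the 30 bases around the start, 5′ to 3′ on the strand of the gene, with the pyrimidine tract in capitals.
Rps27 (chr3:90213634-90213663, minus strand): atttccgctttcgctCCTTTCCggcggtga
Rps15a (chr7:118116133-118116162, minus strand): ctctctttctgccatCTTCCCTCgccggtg
Rpl35 (chr2:39005117-39005146, minus strand): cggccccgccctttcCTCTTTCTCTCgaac
Rpl27a (chr7:109519180-109519209, plus strand): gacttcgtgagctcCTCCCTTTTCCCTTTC
Rpl15 (chr14:18270972-18271001, minus strand): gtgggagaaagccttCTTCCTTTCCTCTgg
Rpl38 (chr11:114668565-114668594, plus strand): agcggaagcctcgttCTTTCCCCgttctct
Rps13 (chr7:116334176-116334205, minus strand): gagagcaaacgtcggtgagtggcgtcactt
A tract was found in both sets, and the annotated start of Rps13 has none within 5 bases. These members are examples picked by unlike measures, so the sets cannot be compared for the tract. Rpl11, Rpl23 and Rpl37, also below the controls in every lox/lox library, have none within 5 bases. Nor has Rps12, which was higher against the family in every lox/lox library than in every control.

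Other genes of translation were set beside the family from lists. The relatives and ubiquitin fusions had a median log2 fold change of -0.64 over 8 tested genes and 0 that passed. That median was -0.30 with no expression minimum and -0.37 within the ASK and BSH set. Among the paralogs, Rpl22l1 and Rpl36al had log2 fold changes of -0.95 and -0.88, and Rpl22 and Rpl36a of -0.41 and -0.71, and none of the 4 passed. Rpl3 and Rps4x, which also have relatives, had log2 fold changes of -0.71 and -0.70.

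The 11 tested elongation and release factors were all negative with a median of -0.46 and 0 that passed. Eef1a1, which carries aminoacyl-tRNA to the ribosome, averaged 1613 ± 479.8 in lox/lox and 2170 ± 311.8 in control libraries (SD, n = 4 each). Eef1b2, part of the exchange factor that recharges it, had a log2 fold change of -0.83 (SE 0.36, limma adjusted p = 0.166). The 18 non-ribosomal mRNAs with the same 5′ tract, 4 of which carry the symbols Eef1a1, Eef1b2, Eef1d and Eef1g of the previous list, had a median of -0.29 with 0 that passed. Tpt1, a growth-associated protein, averaged 956.4 ± 417.5 in lox/lox and 1822 ± 298.9 in control libraries (SD, n = 4 each; limma adjusted p = 0.137).

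Of the 41 initiation factors 1 fell and 0 rose, where 0.196% of all genes fell and 0.238% rose, and the median was -0.18. Eif2b2, a subunit of the exchange factor that recharges eIF2, was at 8.56, 9.14, 11.5 and 11.99 in lox/lox libraries 1 to 4 and at 24.6, 26.1, 25.2 and 20.9 in controls 1 to 4, without overlap. It fell by 1.17 on the log2 scale (SE 0.16, limma adjusted p = 0.0338), and leaving out any control or lox/lox library 1 or 3 ended the call. Mitochondrial ribosomal proteins, which serve the separate ribosome of that organelle, had a median of -0.24 over 76 tested genes, 55 of them negative and 0 that passed. Groups did not overlap in 16 genes that were lower and 2 that were higher, against 7.64% and 10.9% of all genes. Their summed level was 510.4 to 778.2 in lox/lox libraries, below the 798.3 to 912.6 of the controls. Mrpl52, of highest mean, had a log2 fold change of -0.24, and Mrps21 averaged 27.1 ± 7.87 in lox/lox and 48.6 ± 6.52 in control libraries (SD, n = 4 each; limma adjusted p = 0.102).

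Ribosome biogenesis genes, which make and assemble the subunits in the nucleolus, had a median log2 fold change of 0.16 over 57 tested genes, near the 0.10 of all genes. Of the 57, 41 were positive, where 57.9% of all genes were, and 0 passed. Under quantile scaling their median was 0.023. Npm1, a nucleolar chaperone, averaged 84.8 ± 8.13 in lox/lox and 69.1 ± 8.52 in control libraries (SD, n = 4 each; limma adjusted p = 0.304). The 17 tested genes of mTOR and growth control had a median of -0.05 and 0 that passed. The summed level over the 20 entries of that list was 134.7 to 175.4 in lox/lox libraries, below the 187.8 to 223.1 of the controls. Eif4ebp1, the mTOR-controlled repressor of cap binding, averaged 27.2 ± 8.14 in lox/lox and 46.9 ± 5.72 in control libraries (SD, n = 4 each; limma adjusted p = 0.112). The 17 tested digestive enzyme genes, 16 of them negative, had a median of -2.99 and 0 that passed. All these medians are on the deposited scale, and the difference between lists was not tested. Under implied totals every translation list had a positive median, between 0.76 for the relatives and ubiquitin fusions and 1.24 for ribosome biogenesis, beside 0.69 for the family and 1.15 for all genes.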

How the data were processed

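Per the submitters' processing notes, the data went through CASAVA 1.8, TopHat2 2.0.4, Bowtie and Cufflinks 2.0.1 on mm9 (NCBIM37). Libraries were made with 8 cycles of PCR from RNA with integrity numbers of 7.1 to 8.8, per the labels' protocols. Read length and gene model release are not stated. The authors deposited 1 table of gene FPKM with interval bounds per sample, and no counts are used here. FPKM of the 14 IDs on several entries was summed and divided by 100000. Genes whose status was not OK in any library (295) were left out, as were genes with a mean under 1. The remaining 11760 entered limma 3.58.1 (R 4.3.3) as log2 of rescaled FPKM plus 1, with an intensity trend, two-sided, after a test on simulated data in which fold changes came back with little bias but few of the smallest and fewer than all of the larger ones were called. Implied fragments are the squared ratio of FPKM to its standard error from the interval. They are not counts and do not cover variation between animals. In some members they ranged far more widely than FPKM: Rps9 had 88.8 to 3847 implied fragments at 194.6 to 505.2 rescaled FPKM. What the intervals hold beside counting error was not tested. Replicates are animals by label, numbered in accession order. The limma p-values set the difference between group means against the spread within groups of these samples, with variances moderated across genes. GENCODE M21 served for biotypes through gene IDs (31818 matched). Coordinates count from 1. Members and lists were chosen with earlier results of these data known. Members were named by rule: Rpl29, passing members, the highest and lowest levels and the most and least negative fold changes of each subunit, members with paralogs, and of each list passing genes or those of highest mean. Alternatives were other pseudocounts, minimums, scalings and limma options, the title prefix, and leaving out libraries. Some genes that this rule names are not reported here.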

Additional observations from a re-analysis of the deposited data

Results flagged for a closer look

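Of 44 groups of 4 values examined for a library far from the others, 1 was flagged, where chance flags about 1 in 20. Rpl35 was at 226.5 rescaled FPKM in lox/lox library 4, far above the other lox/lox libraries (161.4, 164.6 and 161.7 in libraries 1, 2 and 3). The controls ranged from 185.5 to 270.2. The median level of the family was also highest in lox/lox library 4 among the lox/lox libraries (304.9, against 132.2, 209.7 and 157.4 in libraries 1, 2 and 3). Relative to the family median and the control mean, Rpl35 stood at 0.04 in lox/lox library 4 and at 0.76, 0.12 and 0.51 in libraries 1, 2 and 3.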

How the results depend on the processing

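The number of members that fell (1 on the deposited scale) was 0 under quantile, equal-sum, implied-total and equal ribosomal protein median scaling, with the title prefix as covariate, among BKD titles, among ASK and BSH titles and without lox/lox libraries 1 and 3. It was 2 without trend, 47 with sample weights and 0 to 48 on leaving out 1 library. Under implied totals 24 members rose. The family median went to -0.10 (quantile), 0.28 (equal sum), 0.69 (implied totals), -0.017 (equal ribosomal protein median), -0.97 (BKD), -0.51 (ASK and BSH) and -0.29 (without lox/lox libraries 1 and 3), and ranged from -0.96 to -0.51 on leaving out 1 library. Rpl29 no longer passed at -1.16, -0.42, -0.020 and -0.71 under the same 4 scalings (adjusted p = 0.0977, 0.433, 0.965 and 0.103), at -1.26 with the prefix, -1.29 in BKD, -1.23 in ASK and BSH and -1.26 without lox/lox libraries 1 and 3 (0.181, 0.628, 0.214 and 0.0954). It ranged from -1.48 to -1.28 on leaving out 1 library. The departure of Rpl29 from the other members was -1.02 (quantile), -0.39 (BKD) and -1.01 (without lox/lox libraries 1 and 3), and -0.95 to -0.52 on leaving out 1 library. Of the 217 tested genes in the translation lists 1 fell and 0 rose on the deposited scale. Of them 129 rose and 0 fell under implied totals, where 47.7% of all genes rose, and 13 rose and 46 fell with sample weights, where 19.9% of all genes rose and 12.7% fell. In these lists 0 fell under equal-sum and equal ribosomal protein median scaling, with the prefix, in either title set and without lox/lox libraries 1 and 3, and 0 to 7 rose and 0 to 38 fell on leaving out 1 library, the highest counts being without lox/lox library 4 (11.8% of all genes rose and 10.4% fell).

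Signs of named genes turned under scaling. Rpl23a, Rpl35, Rpl22, Rps27 and Rps15a went to 0.38, 0.27, 0.12, 0.97 and 0.74 (quantile), 0.77, 0.65, 0.58, 0.96 and 0.69 (equal sum), 1.18, 1.06, 0.99, 1.37 and 1.10 (implied totals) and 0.47, 0.35, 0.28, 0.66 and 0.40 (equal ribosomal protein median). Rps28, Rps13 and Rps14 went to 0.066, 0.11 and 0.14 (equal sum) and 0.48, 0.52 and 0.55 (implied totals), and Rpl32, Rplp1 and Eif2b2 to 0.24, 0.27 and 0.16 (implied totals). Rpl23a was 0.19 in BKD titles and 0.026 without lox/lox libraries 1 and 3, where Rps27 was 0.011; Rps27 ranged from -0.16 to 0.031 on leaving out 1 library. Beyond the scalings themselves the cause was not tested. No paired analysis was possible because the titles carry no replicate numbers. Implied depth is not a count and does not cover variation between animals, and the missing enzyme estimates limit every scaling to totals.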
